A study of Mus musculus with 2 samples.

Results

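The 41 genes described here form the core of the cell division cycle: the cyclins and their kinases (12 genes), the brakes on the cycle (4 genes: 3 kinase inhibitors and Rb1), the genes of DNA replication (13 genes) and the genes of mitosis (12 genes). They were chosen by name from a list of textbook cell cycle genes, and every one of the 41 names was found once among the 51826 genes in the deposited tables. RNA came from the spinal cord of C57BL/6 mice on postnatal day 7, with 1 library for the wild type (WT) and 1 for a genotype that combines Olig1-Cre with Secisbp2l floxed at exon 3 (cKO). Both groups shared strain, tissue and age and received no treatment that the labels name. Olig1-Cre acts in cells of the oligodendrocyte lineage and their progenitors, and Secisbp2l encodes a relative of the protein that helps ribosomes insert selenocysteine. The number of mice behind a library and their sex are not given in the labels.

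A cell divides by switching cyclin-dependent kinases on in turn. D-type cyclins with CDK4 and CDK6 start to inactivate the retinoblastoma protein, which frees E2F factors to switch on the replication genes, and cyclin B with CDK1 then drives mitosis. In the cord of a newborn mouse most neurons have left the cycle, while oligodendrocyte precursors, other glia, microglia and vessel cells still divide, and which cells carry these mRNAs cannot be read from whole tissue. An oligodendrocyte precursor leaves the cycle before it makes myelin, a step in which the inhibitor p27, the product of Cdkn1b, is known to take part.

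Replication and mitosis genes carry different short motifs before their start sites, and 4 promoters are shown because they hold the contrast and the member with the widest difference between the libraries. Of the 41 genes, 34 were matched by symbol in RefSeq's promoter table for GRCm38.p6, which gives 250 bases before and 50 after each start. Capitals mark 3 motifs searched on both strands: the E2F-type TTTNNCGC, the CHR-type TTTGAA (the element read by the MuvB complexes that control mitosis genes) and the CCAAT box, CCAAT. Each sequence runs 5′ to 3′ along the gene's strand from base -150 towards the start, and that of Cdk1 stops where the deposited gene begins.
Mcm6 (replication), chr1:128359706-128359855, minus strand: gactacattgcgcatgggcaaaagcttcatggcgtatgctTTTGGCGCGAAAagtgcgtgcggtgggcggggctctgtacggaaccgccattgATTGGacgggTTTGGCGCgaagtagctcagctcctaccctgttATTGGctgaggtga
Top2a (mitosis), chr11:99024190-99024339, minus strand: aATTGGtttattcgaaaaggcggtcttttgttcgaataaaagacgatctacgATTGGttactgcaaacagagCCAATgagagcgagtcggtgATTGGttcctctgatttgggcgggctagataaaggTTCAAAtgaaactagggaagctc
Cdk1 (mitotic kinase), chr10:69352939-69353062, minus strand: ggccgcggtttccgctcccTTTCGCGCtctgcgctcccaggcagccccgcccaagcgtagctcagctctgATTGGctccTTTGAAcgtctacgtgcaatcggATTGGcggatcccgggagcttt
Cdkn1b (inhibitor), chr6:134920251-134920400, plus strand: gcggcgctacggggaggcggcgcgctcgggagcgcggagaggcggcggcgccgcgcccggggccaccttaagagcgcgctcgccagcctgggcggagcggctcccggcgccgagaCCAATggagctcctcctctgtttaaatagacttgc
Mcm6 shows 3 E2F-type matches, of which 2 overlap each other, 2 CCAAT boxes and no CHR-type match. Top2a shows 4 CCAAT boxes and 1 CHR-type match on the opposite strand, read here as TTCAAA. Cdk1 holds both kinds, and Cdkn1b shows a single CCAAT box in this window.

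Over the 34 matched genes the E2F-type and CHR-type motifs divided in the same way, while CCAAT was common to all roles. The E2F-type motif was found in 7 of 12 replication genes and 0 of 11 mitosis genes. Over all 34 genes it was found in 10, or 29.4%, against 5.93% of the 27025 genes and 5.17% of the 32851 promoters of the table. The CHR-type motif was found in 8 of 11 mitosis genes and 2 of 12 replication genes, in all in 12 of 34 or 35.3%, against 20.2% of genes and 17.9% of promoters. CCAAT was found in 10 of 11 mitosis genes, 8 of 12 replication genes, 5 of 8 cyclins and kinases and 2 of 3 inhibitors, and in 25 of all 34, or 73.5%, against 41.1% of genes and 37.4% of promoters. These are matches of letters in the reference sequence, not measured binding.

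The targeted gene and the state of the 2 libraries were looked at first. Estimated counts summed to 42875143 in WT and 55179026 in cKO, and each sequenced fragment gave about 2 of them. Levels are given as counts scaled by TMM and by depth (CPM), which compare libraries, or as the authors' TPM, which also divide by length and so compare genes. Secisbp2l had 588 CPM in the WT library against 466 in the cKO library, which gives -0.34 as log2 of cKO over WT; these whole-transcript estimates do not isolate exon 3 and do not check its deletion. Xist had 820 CPM in WT against 0.236 in cKO, and 4 Y-linked genes had counts in cKO alone. Genotype and sex cannot be told apart here for any gene. Of the 41 cell cycle genes 0 lie on a sex chromosome, which does not separate sex from genotype for them. A single library stood for each genotype, so no difference has a replicate check or a p-value. Intervals in brackets are 95% exact (Clopper-Pearson) intervals of the log2 ratio, on fragments, and cover counting error only.

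As a whole the cell cycle genes stood at nearly the same level in both libraries. Summed over the 41 genes, TPM was 698 in WT and 700 in cKO, and their counts made up 0.0869% and 0.0860% of the libraries. The log2 ratio of the summed CPM was -0.01 (-0.04 to 0.01). The median over the 41 log2 ratios was 0.00, against 0.01 over the 15917 genes with 1 CPM or more on average, called measured here. All 41 passed that filter, and 22 had a ratio above 1 (53.7%, against 52.3% of all measured genes) and 19 a ratio below 1.

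No member met the rule of size used for single genes, 1.5-fold or more apart and with 1 outside the counting interval of the ratio. The count was 0 of 41 higher in cKO, where 2.46% of all measured genes were, and 0 of 41 lower, where 3.39% were. At shares of that size about 1 gene of 41 would be past the limit in each direction if the members were like all genes, so a count of 0 is near the background. At a lower limit, a log2 ratio of 0.32 either way, 3 members were higher (Cdkn1b, Ccne1 and Mcm3) and 1 was lower (Bub1), against 6.22% and 7.82% of all measured genes.

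Counting error alone left room for smaller differences. The interval lay above a ratio of 1 for 6 members (Cdkn1b, Cdkn1a, Ccne1, Mcm3, Mcm5 and Cenpe), against 21.9% of measured genes. It lay below 1 for 8 (Ccnd1, Ccna2, Cdk1, Cdk4, Cdkn2c, Rb1, Pcna and Bub1), against 18.4%. Among the 11749 measured genes within the members' range of CPM these shares were 18.0% and 17.9%, next to 14.6% and 19.5% of the members. For 31 of the 41 genes the interval fitted wholly inside 1.5-fold either way. It reached the limit on one side or passed it for Cdkn1b, Bub1, Mcm3, Tyms, Cdc6, Cdc45, Cdk1, Cdk2, Aurka and Ttk, most of them genes of few counts. How far 2 cords of 1 genotype differ from each other was not measured.

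**Figure D1:**
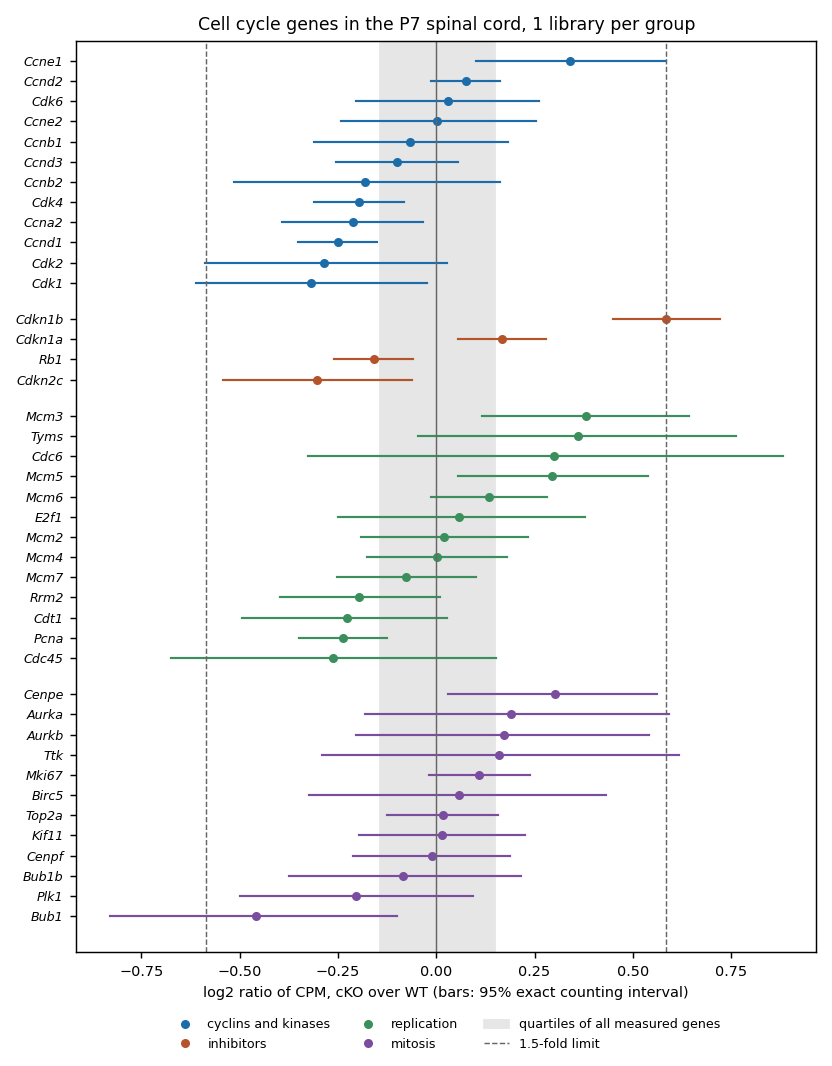
The log2 ratio of CPM, cKO over WT, is drawn for each of the 41 genes by role, with bars for the 95% exact counting interval, a grey band between the quartiles of all measured genes (-0.14 to 0.15) and dashed lines at 1.5-fold. The points run from -0.46 for Bub1 to 0.58 for Cdkn1b. Of the 41 genes, 28 were within 0.25 of equality, next to 11451 of the 15917 measured genes.

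Cyclins and kinases lay slightly below equality, with a median log2 ratio of -0.14 and 8 of 12 ratios below 1. Their summed CPM was 335 in WT and 315 in cKO, a log2 ratio of -0.09 (-0.14 to -0.05), and 0 of 12 met the rule of 1.5-fold in either direction. The D-type cyclins carry growth signals into the cycle. Ccnd1 stood at 43.7 TPM in WT and 37.8 TPM in cKO, with a log2 ratio of counts of -0.25 (-0.35 to -0.15). Ccnd2, the D-type cyclin with the most counts, stood at 32.9 and 35.8 TPM with a ratio of 0.07 (-0.01 to 0.16). Ccnd3 stood at 33.4 and 31.3 TPM with -0.10 (-0.26 to 0.05). The 3 D-type cyclins were thus similar in level to each other and split in sign, and among them the interval left out 1 for Ccnd1 alone.

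Their partner Cdk4 was the second most abundant of the 41 genes on TPM in WT and the most abundant in cKO, at 83.6 TPM in WT and 78.3 TPM in cKO. Its log2 ratio of counts was -0.20 (-0.31 to -0.08). Cdk6, the related partner, was far lower, at 3.16 and 3.42 TPM, with a ratio of 0.03 (-0.20 to 0.26). Exons of Cdk4 overlap those of Tspan31 on the other strand over 641 bases, and the strand setting of the counting is not given, so reads of the pair may not be fully separated.

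E-type cyclins and CDK2 act at the entry into DNA replication, and the log2 ratios of these 3 genes ran from -0.28 to 0.34. Ccne1 stood at 12.8 TPM in WT and 16.2 TPM in cKO, a log2 ratio of 0.34 (0.10 to 0.58), the only one of the 12 with an interval above 1. Ccne2, its paralogue, stood at 9.28 and 10.2 TPM with a ratio of 0.00 (-0.24 to 0.25) on counts. Cdk2, their kinase, stood at 7.70 and 6.31 TPM with -0.28 (-0.59 to 0.03). Of these 3 genes the interval left out 1 for Ccne1 alone. On TPM the log2 ratio of Ccne2 was 0.13, and the difference between the genes was not tested.

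The cyclins and the kinase of late S phase and mitosis were all at or below equality. Ccna2, the A-type cyclin of S and G2, stood at 17.9 TPM in WT and 15.8 TPM in cKO, with a ratio of -0.21 (-0.39 to -0.03). Ccnb1 and Ccnb2, whose products switch on CDK1 for mitosis, had ratios of -0.07 (-0.31 to 0.18) and -0.18 (-0.52 to 0.16). Cdk1 itself (ENSMUSG00000019942, minus strand of chromosome 10, 69335146 to 69352938 in GRCm38) stood at 5.55 TPM in WT and 4.79 TPM in cKO. Its counts were 385 and 397, a log2 ratio of -0.32 (-0.61 to -0.02) after scaling. That was the lowest ratio of the 12, and its interval came close to a ratio of 1.

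**Figure D2:**
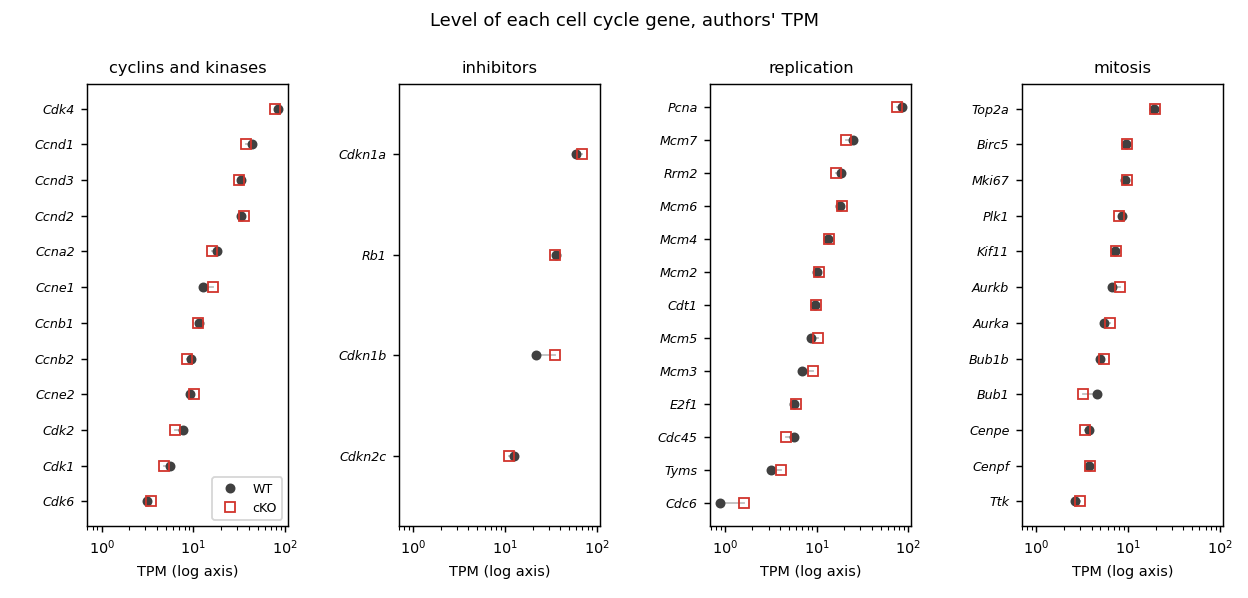
The authors' TPM of each gene is drawn on a log axis, as a filled circle for the WT library and an open square for the cKO library, in 4 panels by role. Levels span from 0.878 TPM (Cdc6, WT) to 86.2 TPM (Pcna, WT), and for most genes the circle and the square overlap; the widest gaps are those of Cdc6, Cdkn1b and Bub1.

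The 4 inhibitors diverged, 2 with intervals above 1 and 2 with intervals below, and held the widest difference of all 41 genes on CPM (on TPM that of Cdc6 was wider). Cdkn1b (ENSMUSG00000003031, plus strand of chromosome 6, 134920401 to 134925513) encodes p27, which holds cells out of the cycle by blocking cyclin-CDK2 complexes. It had 1356 counts in WT and 2614 in cKO, or 31.6 and 47.4 CPM, and 21.8 and 34.9 TPM. The log2 ratio was 0.58 (0.45 to 0.72), a fold of 1.4997 that fell just short of the 1.5-fold limit. The limit was passed with DESeq2 size factors (1.5001-fold), with upper quartile scaling (1.518-fold) and on TPM with a pseudocount of 0.1 (1.602-fold), while with plain library totals the fold was 1.4979. Counting its most abundant transcript alone gave 1.19-fold. Whether Cdkn1b is past the limit thus depended on the setting, while its ratio was above 1 in each setting run.

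Cdkn1a encodes p21, the inhibitor that p53 switches on. It was the most abundant of the 4 inhibitors, at 60.0 TPM in WT and 69.7 TPM in cKO, with a log2 ratio of 0.17 (0.05 to 0.28). Cdkn2c encodes p18, which binds CDK4 and CDK6. It stood at 12.4 and 11.0 TPM with a ratio of -0.30 (-0.54 to -0.06). Rb1, the retinoblastoma gene, stood at 35.7 and 34.9 TPM, with a ratio of -0.16 (-0.26 to -0.06) on counts and -0.03 on TPM. Exons of Rcbtb2 and Lpar6 on the other strand overlap its own. Summed over the 4 genes, the log2 ratio was 0.10 (0.04 to 0.16) on CPM and 0.21 on TPM, where Cdkn1a made up 46.2% of the WT sum.

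Replication genes were centred on equality, with a median of 0.02, 8 of 13 ratios above 1 and a summed log2 ratio of the other sign, -0.03 (-0.09 to 0.03), in which Pcna held 27.2% of the WT counts. The MCM2 to MCM7 proteins form the ring that unwinds DNA, and 5 of these 6 genes had a ratio above 1. Mcm3 stood at 6.96 TPM in WT and 9.09 TPM in cKO, a log2 ratio of 0.38 (0.12 to 0.64). Mcm5 stood at 8.60 and 10.3 TPM with 0.29 (0.05 to 0.54), and Mcm6 at 18.0 and 19.1 TPM with 0.13 (-0.01 to 0.28). For Mcm2 and Mcm4 the ratios were 0.02 and 0.00, with 10.1 and 13.4 TPM in WT. Mcm7, the most abundant of the 6 on TPM, was at 25.2 and 21.2 TPM with -0.08 (-0.25 to 0.10). Subunits of 1 complex therefore differed in ratio, from -0.08 to 0.38, and only the intervals of Mcm3 and Mcm5 left out 1.

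The loading and firing factors of replication origins, and E2f1, all had intervals that included 1. Cdc6, which loads the MCM ring, had 79 counts in the WT library and 125 in the cKO library, the fewest of any member, and a ratio of 0.30 (-0.33 to 0.88). Cdt1, its partner in loading, had 471 and 517 counts and a ratio of -0.23 (-0.49 to 0.03). Cdc45, which joins the ring when an origin fires, had 194 and 208 counts and -0.26 (-0.67 to 0.15). E2f1, the factor that switches such genes on, stood at 5.64 and 6.03 TPM with 0.06 (-0.25 to 0.38). For all 4 genes the interval reached 0.25 or further from equality on at least 1 side, so smaller differences were not detectable at this depth.

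Nucleotide supply and the sliding clamp completed the replication genes. Pcna, the clamp that holds polymerases on DNA, was the most abundant of all 41 genes in WT, at 86.2 TPM, and stood at 75.0 TPM in cKO. Its log2 ratio was -0.24 (-0.35 to -0.12). A processed copy, Pcna-ps2, had 279 counts in WT and 493 in cKO and can share reads with it; with the copy added, a calculation chosen after the values were seen, the ratio was -0.15. Rrm2, the ribonucleotide reductase subunit made in S phase, stood at 18.3 and 16.4 TPM with -0.20 (-0.40 to 0.01). Tyms, which makes thymidylate, stood at 3.17 and 4.14 TPM with 0.36 (-0.05 to 0.76). Pcna, Rrm2 and Tyms thus lay on both sides of equality, and of the 3 only Pcna had an interval that left out 1.

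Of the mitosis genes, 10 of 12 had a log2 ratio within 0.25 of 0, against 8 of 13 replication genes and 8 of 12 cyclins and kinases. Among all measured genes, 11451 of 15917 were within 0.25 of 0. The median of the mitosis genes was 0.04 and their summed log2 ratio 0.04 (-0.03 to 0.10), on 155 CPM in WT and 160 CPM in cKO. Mki67 (ENSMUSG00000031004, minus strand of chromosome 7, 135689784 to 135716361) encodes Ki-67, the standard marker of dividing cells. It had 1696 counts in WT and 2351 in cKO, or 39.5 and 42.6 CPM, with a ratio of 0.11 (-0.02 to 0.24). Top2a, which untangles sister chromatids, had 1451 and 1888 counts, or 33.8 and 34.2 CPM, and a ratio of 0.02 (-0.12 to 0.16). For the 2 mitosis genes with most counts, a difference of 1.5-fold lay outside the interval in both directions.

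Bub1 and Cenpe were the mitosis genes further than 0.25 from 0, and Bub1 had the lowest ratio of all 41 genes. It encodes a kinase of the spindle checkpoint, which delays chromosome separation until every chromosome is attached (ENSMUSG00000027379, minus strand of chromosome 2, 127801122 to 127831865). Bub1 had 263 counts in WT and 246 in cKO, or 6.13 and 4.46 CPM, a ratio of -0.46 (-0.83 to -0.10). The other checkpoint kinases had intervals that included 1: Bub1b, for BUBR1, had a ratio of -0.08 (-0.37 to 0.22) and Ttk, for MPS1, 0.16 (-0.29 to 0.62). The direct difference between Bub1 and these genes was not tested.

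The Aurora kinases and their partners, which build the spindle and correct its attachments, were close to equality. Aurka had a ratio of 0.19 (-0.18 to 0.59), Aurkb 0.17 (-0.20 to 0.54), and Birc5, the survivin subunit that places Aurora B, 0.06 (-0.32 to 0.43). Plk1, a kinase of mitotic entry, had -0.20 (-0.50 to 0.09). Kif11, the motor that pushes spindle poles apart, had 0.02 (-0.20 to 0.22) on 659 and 856 counts. Cenpf, a kinetochore protein made in G2, had -0.01 (-0.21 to 0.19). Cenpe, a kinetochore motor, had 387 counts in WT and 613 in cKO, a ratio of 0.30 (0.03 to 0.56), and it was the only mitosis gene with an interval above 1.

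For 4 of 41 genes (9.76%, against 10.8% of all measured genes) the sign of the difference depended on whether counts or TPM were compared. On TPM the log2 ratio was -0.14 for Cenpe, 0.06 for Cdt1, 0.14 for Bub1b and 0.03 for Cenpf, each opposite to its sign on counts. The scales were more than 0.25 apart for 3 of 41 members (Cenpe, Cdt1 and Cdc6, the last at 0.88 on TPM), or 7.32% against 4.94% of all measured genes. TPM weights short transcripts more, and the transcript estimates show where the gap arose. In Cenpe the full-length Cenpe-201 went from 371 to 608 counts, a ratio of 0.35, while the short Cenpe-203, of 582 nt, was listed at 0.75 TPM in WT and 0 in cKO on 9 counts. In Cdc6 the short retained-intron Cdc6-204 had 1 count in WT and 10 in cKO and added 0.58 TPM in cKO. A handful of counts on a short transcript thus set the TPM ratio of these low genes.

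**Figure D3:**
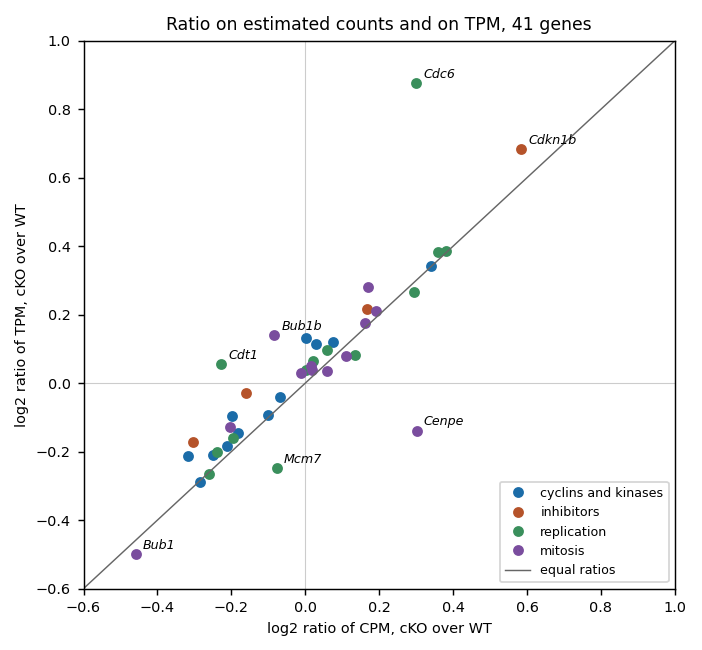
Each of the 41 genes is placed by its log2 ratio of CPM (horizontal) and of TPM (vertical), cKO over WT, with a line of equal ratios and colours by role. Most points lie on or just above the line; Cdc6 lies far above it, and Cenpe far below it at 0.30 and -0.14.

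The authors' division of a gene's counts between its transcripts differed between the libraries in a few members, as it did in other genes. Shares differed by more than 20 percentage points in 6 members: Ccnd3, Cdt1, Mcm5, Ccne2, Aurka and Ttk. That is 15.8% of the 38 members with more than 1 listed transcript, near the 16% of all such measured genes, or 12.5% of all measured genes with counts in both libraries. For Ccnd3, transcript Ccnd3-215 had a share of 65.6% in WT (61.7% to 69.1%, a 95% Wilson interval) and of 1.39% in cKO, and Ccnd3-202 held 19.0% and 83.0%. Both encode the same protein, of 876 coding bases, and share 2045 bases, so few reads can tell them apart. For Cdt1, Cdt1-205, which retains an intron and has no coding sequence, held 84.7% in WT (79.6% to 88.8%) and 26.7% in cKO (21.7% to 32.5%). The coding Cdt1-201 held 14.2% and 69.8%, or 1.60 TPM in WT and 6.86 TPM in cKO. These 2 differ by 518 bases present in Cdt1-205 alone. For Mcm5, Mcm5-205 went from 52.0% to 25.1% and Mcm5-201 from 46.2% to 61.0%, and for Ccne2, Ccne2-207 went from 72.5% to 46.7%. In each of these pairs the main transcripts share their coding sequence or most of their bases, and the intervals do not cover the error of the authors' division.

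In Cdkn1b both main transcripts were higher in cKO. Cdkn1b-201 had 428 counts in WT and 1345 in cKO, a log2 ratio of 1.29 (1.06 to 1.52), and Cdkn1b-202 had 827 and 1269, a ratio of 0.26 (0.07 to 0.43). All bases of Cdkn1b-201 lie within Cdkn1b-202, which has 2159 more, and both have the same coding sequence. The third transcript, Cdkn1b-203, had 101 counts in the WT library and 0 in the cKO library. The share of Cdkn1b-201 was 31.6% in WT (28.2% to 35.2%) and 51.5% in cKO (48.7% to 54.1%). The marker genes Mki67 and Top2a show the opposite case, with 1 transcript holding 99.7% and 94.1% of counts in WT and 100% and 94.3% in cKO. Aurka and Ttk, below 10 CPM and singled out after their values were seen, also moved: Aurka-203 held 98.4% of 193 counts in WT and 33.2% of 283 in cKO.

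**Figure D4:**
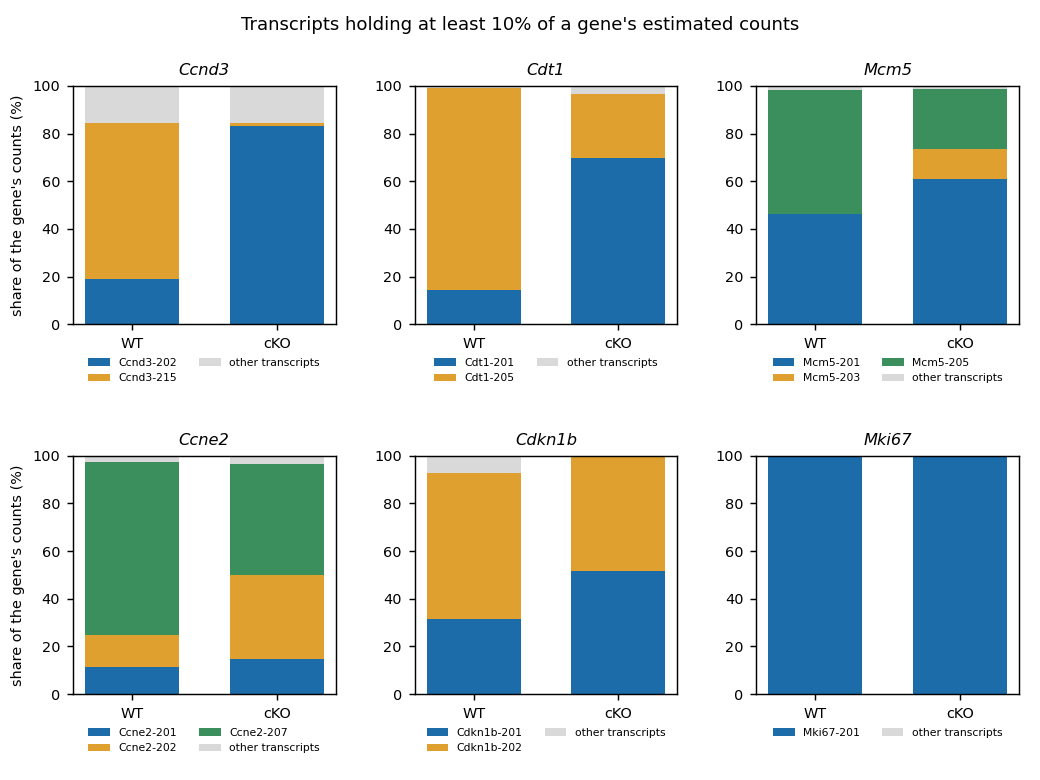
Stacked bars give the share of a gene's estimated counts held by each transcript with at least 10% in a library, for 5 genes with changed shares and Mki67 for comparison, with WT left and cKO right. Ccnd3-215 takes 65.6% in WT and 1.39% in cKO, whereas Mki67-201 takes nearly the whole bar in both.

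The wider set of cell cycle genes gave the same picture with more genes. Of 172 other listed genes, 169 were found and 165 measured. Past the rule of 1.5-fold were 4 higher genes (2.42%) and 5 lower genes (3.03%), next to 2.46% and 3.39% of all measured genes, and the median log2 ratio was -0.01. Kinase inhibitors outside the 41 included Cdkn2d, for p19, which blocks CDK4 and CDK6. Cdkn2d stood at 54.2 TPM in WT and 84.2 TPM in cKO, on 1321 and 2698 counts, a ratio of 0.67 (0.53 to 0.81). Cdkn1c, for p57, stood at 93.6 and 83.6 TPM with -0.30 (-0.42 to -0.19). Inhibitors of the cycle thus differed in both directions, as they did among the 41. Btg2, an antiproliferative gene, was at 0.49 and Gadd45a, a damage response gene, at -0.53, both within the rule.

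Among the partners of E2F, Tfdp1, which pairs with E2F proteins on DNA, had the most counts of those past the rule. Tfdp1 stood at 91.1 TPM in WT and 55.6 TPM in cKO, on 3302 and 2677 counts, a ratio of -0.66 (-0.77 to -0.56). Lin54, the subunit of MuvB that reads the CHR motif, stood at 6.24 and 8.81 TPM with 0.59 (0.36 to 0.82). At 0.5856 against a log2 limit of 0.5850, Lin54 was past the rule by a narrow margin, so its call may depend on the scaling. E2f7, a repressing E2F, was at 0.53 and E2f5 at -0.43, within the rule. Of the 17 genes of E2F, DREAM and FoxM1 on the list, these 2 (Lin54 and Tfdp1) were past it, and the median was -0.06.

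Among 45 other replication genes, 1 was past the rule. This was Fen1, the nuclease that trims Okazaki fragments, at 13.7 TPM in WT and 6.09 TPM in cKO on 594 and 317 counts, a ratio of -1.27 (-1.56 to -0.99). Other replication genes named by the same rule lay on both sides: Pole, a polymerase subunit, was at 0.52 and Gmnn, the inhibitor of CDT1, at 0.33, while Gins1 was at -0.49 with an interval that included a ratio of 1. The median of the 45 was 0.05.

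Among 73 other mitosis genes, 2 were higher and 2 lower. Knl1, the kinetochore scaffold that BUB1 binds, stood at 1.57 TPM in WT and 2.38 TPM in cKO with a ratio of 0.61 (0.26 to 0.97). Arhgap11a, a regulator of RhoA, stood at 5.06 and 7.31 TPM with 0.59 (0.36 to 0.84). Spc25, a subunit of the NDC80 complex, stood at 13.2 and 7.75 TPM with -0.78 (-1.13 to -0.44), and Nek2, a centrosome kinase, at 3.66 and 2.49 TPM with -0.62 (-1.06 to -0.21). Kinetochore genes were therefore found on both sides. Among 22 measured cyclins, kinases and regulators, Cdk18 was past the rule at -0.60 (-0.76 to -0.43), with Ccnc at -0.58 just within it, and Ccnk and Cdc25b, at 0.30 and 0.25, were the highest.

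**Figure D5:**
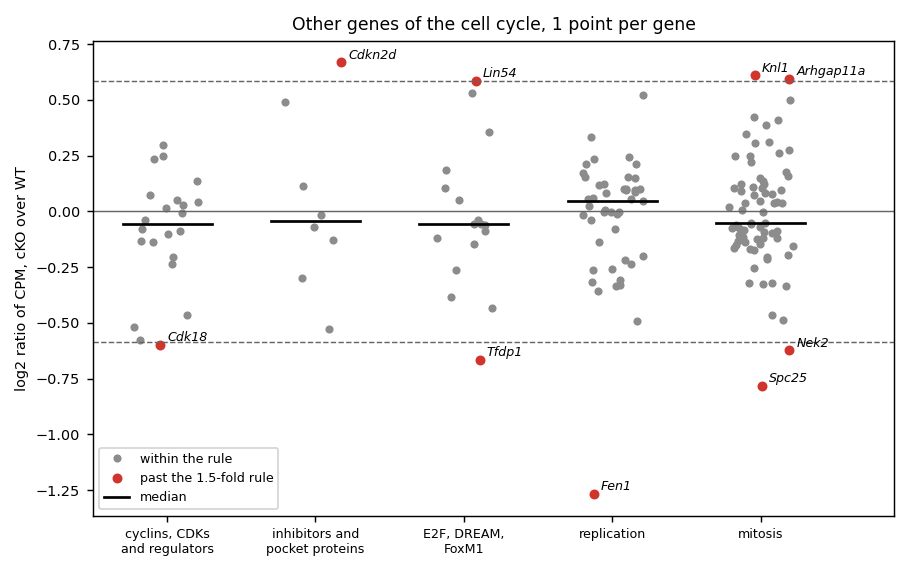
The log2 ratio of CPM, cKO over WT, is drawn for the 165 measured genes of the wider list in 5 groups, 1 point per gene, with the group median as a black bar, dashed lines at 1.5-fold and genes past the rule in red. The group medians lie between -0.06 and 0.05, and 9 genes lie past the rule, 4 above and 5 below.

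The motif groups were set against the ratios as a description. Over the 34 matched members, genes with the E2F-type motif had a median log2 ratio of 0.08 and those without 0.00. Within replication the 7 genes with it had a median of 0.29, from -0.23 for Cdt1 to 0.38 for Mcm3, and the 5 without it -0.20. Among cyclins and kinases the order was the other way, with a median of -0.28 for the 3 genes with it and -0.10 for the 5 without. With the CHR-type motif the median was 0.00, and without it 0.04. The replication genes with and without the E2F-type letters overlapped in ratio, since E2f1 and Mcm2, without it, were at 0.06 and 0.02 and Mcm7, with it, at -0.08.

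Markers of the cell types that could carry these mRNAs were read beside them. All 8 mature oligodendrocyte markers were lower by the rule, with log2 ratios from -1.66 to -0.65 and a summed level of 16067 CPM in WT and 7585 CPM in cKO. Among them Mbp and Mog, genes of the myelin sheath, were at -0.89 and -0.93. All 8 precursor markers had a ratio below 1 on counts, and for 7 the interval lay below 1. On TPM 2 of the 8 had a log2 ratio above 0, Cspg4 at 0.02 and Vcan at 0.006, and Pdgfra was at -0.002. By the rule 2 precursor markers were lower (Gpr17 and Neu4, which mark precursors about to differentiate, named after their values were seen). The list summed to 1056 CPM in WT and 822 CPM in cKO, of which Gpr17 made up 461 and 296 CPM. The precursor markers Pdgfra, Cspg4 and Lhfpl3, found in dividing precursors, were at -0.07, -0.15 and -0.27. Astrocyte (7), microglia (7), endothelium and pericyte (6), neuron (6), erythroid precursor (5 measured of 6), meninges and fibroblast (3) and ependyma (3) lists had 0 genes past the rule, and the Schwann cell list 1 of 4, lower (Drp2, named likewise). Their summed log2 ratios ran from -0.14 for meninges and fibroblasts to 0.43 for the erythroid list, and 0 of the 58 markers had a count of 0. Smaller differences were present in these lists too. The counting interval lay above a ratio of 1 for all 6 neuron markers and below 1 for all 3 of meninges and fibroblasts. It lay above 1 for 2 and below 1 for 4 astrocyte markers, and above 1 for 2 and below 1 for 0 of endothelium and pericytes. For the erythroid and the Schwann cell list it was 3 above and 1 below each, for microglia 0 and 1, and for ependyma 0 and 0. Erythroid precursors also divide, and their genes Alas2 and Tfrc were at 0.42 and -0.09. The part of these shifts in the ratios of the cell cycle genes was not tested, and in bulk tissue fewer cells of a type and less RNA per cell cannot be told apart.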

How the data were processed

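The authors deposited estimated counts, TPM and FPKM for 51826 genes and 128622 transcripts in 2 spinal cord libraries, per the file headers. CASAVA, Bowtie2 2.3.2 and GRCm38.p6 are named in the submitters' processing notes, whereas the tool, annotation release and strand used for counting were not given in the sources used here. Deposited counts are whole numbers, rounded up in 98.9% (WT) and 98.8% (cKO) of transcripts under 50 counts, and values of 1-transcript genes gathered at even numbers (40.4% in WT and 38.0% in cKO lay within 0.2 of one, against 14.6% and 16.1% of an odd one), so 1 fragment was taken as 2 counts. Estimates divide reads between transcripts that share exons, and 13 members overlap exons of genes on the other strand. FPKM served that check alone.

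Counts were scaled by TMM (edgeR 4.0.16, R 4.3.3, factors 1.0006 and 0.9994) to CPM, and genes were kept at a mean of at least 1 CPM. Log2 ratios of cKO over WT were taken without a pseudocount. Where only 1 library had a count of 0, that 0 was set to 3 fragments for the ratio. Exact intervals came from scipy 1.17.1 (Python 3.11.15). The calculation was run on simulated fragments of 2 counts each with counting error only, as the intervals assume. That run checks the code, and did not model rounding, the division of reads between transcripts or differences between animals. Transcript positions and overlaps came from GENCODE M21, where 40 of 41 members had the deposited position. Near-identical copies were sought with BLAST 2.17.0 (at least 90% identity over 200 nt and 25% of the transcript). No significance test was run, since a single library in each group gives no measure of spread. Alternatives were DESeq2 1.42.0 size factors, upper quartile scaling, library totals, TPM with pseudocounts of 0.1 and 1, other filters and fold limits, intervals on counts as deposited, and single transcripts.

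The members, the wider gene list and the marker lists were chosen with earlier results of these data known. Named genes were every member, each other cell cycle gene past the rule, the 2 highest and 2 lowest ratios of each other group, Secisbp2l and, for some marker lists, genes among the first 3; some results that this rule takes are not reported here.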

Additional observations from a re-analysis of the deposited data

How the results depend on the processing

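Of 162 recomputed counts, medians and sums, 142 stayed within 1.5 times the reported count or within a counting band. For a median, the band ran between the medians of the genes' own interval limits, which is wide for a median. Changing the fold limit or the kind of interval cannot move a median, so part of the 142 was fixed in advance. The median of the cyclins and kinases ran from -0.18 to -0.09 over the settings, while that of the mitosis genes, 0.04, was -0.01 on 1 transcript per gene, and that of all members lay between -0.01 and 0.04. The number of members higher by the rule was 1 with DESeq2 size factors, with upper quartile scaling and on TPM with a pseudocount of 1 (Cdkn1b), 2 on TPM with a pseudocount of 0.1 (Cdkn1b and Cdc6; on TPM the fold limit alone was applied, and the counting interval of Cdc6 includes 1), and 3 at a log2 limit of 0.32, where 1 was lower. The summed inhibitors had a log2 ratio of 0.21 on TPM with either pseudocount. Among other cell cycle genes, 10 were higher and 17 lower at a log2 limit of 0.32, and 0 and 1 at 2-fold. Over all measured genes, 990 were higher and 1244 lower at that limit, 130 and 183 at 2-fold, and 190 and 306 with a filter of 5 CPM; 587 were higher with no filter, and 354 lower on TPM with a pseudocount of 1. The cause of these differences was not tested beyond the limits and filters themselves.

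Single members kept their value within the counting interval in 232 of 248 recalculations. Rescaling by DESeq2 size factors, upper quartile or library totals shifts every gene alike and by little. Those recalculations could hardly leave an interval, so the tally says little about stability. Taking 1 transcript per gene in place of the sum moved Ccnd3 to 2.03, Cdt1 to -1.89, Aurka to -1.38, Mcm5 to 0.69, Ttk to 0.65, Ccne2 to -0.63, Mcm6 to 0.44, Cdk4 to -0.36, Cdkn1b to 0.26 and Cdc45 to 0.21. Scaling alone turned the sign of 1 member, Cenpf. No paired analysis was possible because each group has 1 library. Differences between animals, sex and genotype cannot be separated here, and genes of few counts, such as Cdc6, Ttk and Tyms, have intervals wide enough to hold a 1.5-fold difference.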
